A study of Drosophila melanogaster with 2 samples.

Results

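Peaks of the fly protein CG10979 were examined at 10 genes of the epidermal growth factor receptor and Ras pathway, namely the ligand genes spi and vn, the protease gene rho, the receptor gene Egfr, the Ras activation genes Sos and Ras85D, the ETS factor genes pnt and aop, and the inhibitor genes aos and sty. These are 10 of the 13945 protein-coding genes on the 6 chromosome arms that carry peaks. They were chosen by name, with earlier results of these data known, so that the choice was not independent of the peaks. All 10 symbols were found in the annotation. The peaks come from chromatin immunoprecipitation followed by sequencing (ChIP-seq) of whole Drosophila melanogaster embryos, male and female together, collected 0 to 14 h after egg laying. The embryos came from a transgenic line with CG10979 fused at its C terminus to green fluorescent protein, and an antibody against that tag was used. The study has 1 group with 2 biological replicates, numbered 2 and 3. Whole embryos mix all cell types, so that binding in few cells and weak binding in many cannot be told apart. The data are 4 peak lists on build dm6. A relaxed list of 30000 peaks exists for each replicate and for the pool of both, and a list of 7630 peaks holds those past the authors' IDR threshold (irreproducible discovery rate, which scores how well peak ranks repeat between replicates). The signal value of a peak is the authors' own score and ranks peaks within a list, with rank 1 the strongest. The lists give no read counts, and depth is unknown. With 1 group and no second condition, no test was made, and all results are descriptions of these 2 replicates.

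In this pathway a secreted ligand binds the receptor tyrosine kinase Egfr, which acts through an exchange factor to switch the GTPase Ras85D to its active form and so start a kinase cascade. The cascade ends at ETS transcription factors, with the activator encoded by pnt and the repressor encoded by aop acting on shared DNA sites. In the fly embryo the pathway patterns the ventral ectoderm, the tracheal system and the nervous system, and its transcriptional targets include feedback inhibitors such as aos and sty.

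The sequence under the summit with the highest signal value in the IDR list, in each gene or within 10 kb of it, is shown to let base composition and motif matches be read off. Each stretch reaches 50 bases to either side of the summit and is printed 5′ to 3′ on the plus strand of dm6, with the bases taken from the RefSeq genome of the same Release 6 assembly. Capitals mark matches on either strand to the 16 words searched. Cores of ETS factor sites were written as GGAAG or, in a longer form, as CCGGAA. The octamers of Capicua were written as TGAATGAA or, with its second variant, as TCAATGAA. GATA factor words were AGATAA or, for the other form, TGATAA. Single words stood for the promoter box of the TATA-binding protein (TATAAA), the homeobox core (TAATTA), the factor encoded by Trl (GAGAG), Zelda (CAGGTA), DREF (TATCGATA), BEAF-32 (CGATA, which the DREF word contains), M1BP (GGTCACACT) and the CTCF core variant (AGATGGC). The list also held AAATAT besides the similar word ATATTA. Sos had no IDR summit, and no sequence is shown for Egfr.
spi (chr2L:19575735-19575835): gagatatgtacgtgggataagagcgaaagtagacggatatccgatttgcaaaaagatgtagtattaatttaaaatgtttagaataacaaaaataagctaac
vn (chr3L:5824178-5824278): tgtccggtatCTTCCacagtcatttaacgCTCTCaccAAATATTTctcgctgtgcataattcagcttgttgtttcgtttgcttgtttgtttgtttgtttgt
rho (chr3L:1464576-1464676): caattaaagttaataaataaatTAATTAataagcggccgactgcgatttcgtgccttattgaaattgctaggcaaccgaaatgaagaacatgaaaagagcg
aos (chr3L:16480515-16480615): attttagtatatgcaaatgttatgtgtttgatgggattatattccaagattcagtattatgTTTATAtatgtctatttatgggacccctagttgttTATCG
pnt (chr3R:23326442-23326542): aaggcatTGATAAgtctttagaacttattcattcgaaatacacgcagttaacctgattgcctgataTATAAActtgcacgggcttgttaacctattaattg
aop (chr2L:2180196-2180296): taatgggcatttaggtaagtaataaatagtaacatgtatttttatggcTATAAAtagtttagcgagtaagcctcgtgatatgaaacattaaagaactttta
sty (chr3L:3396220-3396320): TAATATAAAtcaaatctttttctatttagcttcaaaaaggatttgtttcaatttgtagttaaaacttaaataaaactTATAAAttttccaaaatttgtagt
Ras85D (chr3R:9513080-9513180): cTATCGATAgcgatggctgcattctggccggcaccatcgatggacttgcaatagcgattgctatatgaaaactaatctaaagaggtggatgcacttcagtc

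Most of these stretches are rich in A and T. The lowest GC content was 17.8% at the sty summit, where a match to TATAAA overlaps one to ATATTA at the left end. The highest was 46.5% at the Ras85D summit, which alone of the 8 holds the DREF word TATCGATA. The spi summit holds none of the 16 words, and the aop summit holds only TATAAA. A match is a description of the letters and no evidence of a bound factor.

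Among the 10 genes, 6 had an IDR summit no farther than 500 bp from an annotated start, namely spi, rho, Ras85D, pnt, aop and aos. Over all protein-coding genes the share was 25.2%. Taking the 7630 strongest peaks of each replicate on its own, the count was 6 genes in replicate 2 and 7 in replicate 3, where vn was added. The shares of protein-coding genes in these lists were 24.4% and 26.3% in the same order. In replicate 2 the summit of rho had rank 7630, the last one admitted. Counted by start position, 9 of the 17 distinct starts of the 10 genes had an IDR summit, against 22.9% of the 19607 distinct starts of protein-coding genes. The 10 genes tend to have more starts than most, and 5 of them have 2 or more, against 26.5% of protein-coding genes. Of the 10 IDR summits at these starts, 9 lay upstream of the start, and their median position was −218 bp (negative values are upstream). Over all 3071 IDR peaks within 500 bp of a start, 77.2% lay upstream and the median was −107 bp. The summit just inside the 500 bp limit was that of aop at −421 bp, and the next ones outside it were those of aop at −620 bp and rho at 815 bp.

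**Figure D1:**
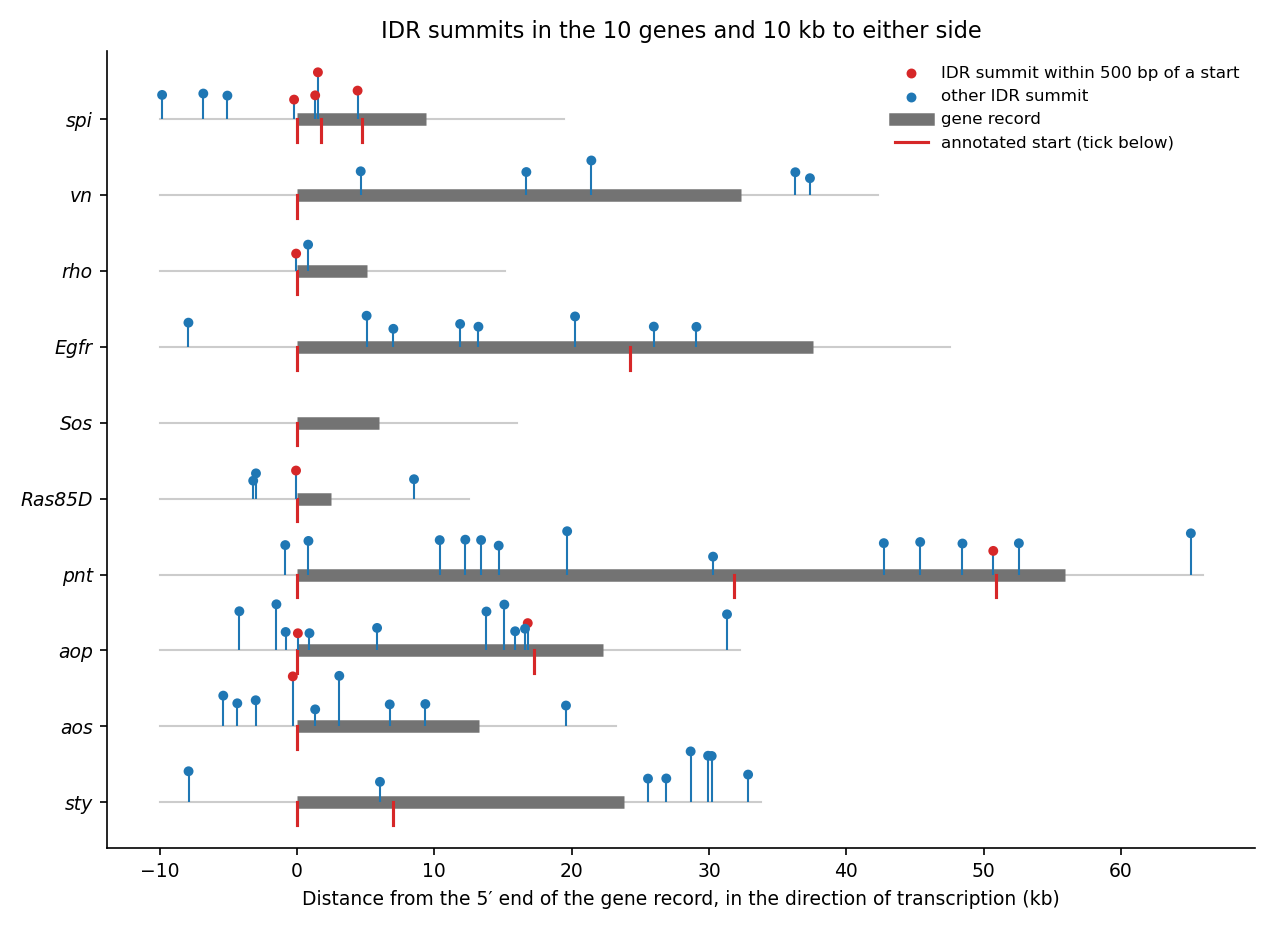
The position of each IDR summit is plotted against the distance in kb from the 5′ end of its gene, one gene per row, with the gene as a grey bar, starts as red ticks and taller stems for higher signal values on a log scale. Most summits of pnt, Egfr and aop lie inside the gene and those of sty lie beyond its 3′ end, while Sos has none.

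The genes also held many summits away from their starts. With each gene extended by 10 kb on both sides, 9 of the 10 genes had at least 1 IDR summit, against 71.4% of protein-coding genes, and Sos was the exception. The 10 extended spans covered 408 kb and held 69 IDR summits, all distinct, or 1.69 per 10 kb, against 0.570 per 10 kb over the 6 arms. The median over the 10 genes was 1.80 summits per 10 kb of extended span, against 0.491 over all protein-coding genes. The genes are long, with a median length of 17.8 kb against 2.17 kb for protein-coding genes, and a longer gene has more room for summits. Of the 69 summits, 38 lay in introns of the gene itself, 1 in one of its exons, 18 upstream and 12 downstream. By the annotation of all genes, 56.5% of the 69 were intronic, against 37.6% of all IDR peaks, and 27.5% were within 500 bp of a start of any gene, against 40.2%. The 69 were taken from these long genes and their surroundings. All IDR peaks were not restricted in this way, so the shares do not compare like with like. Of the 69 summits, 9 lay at the start of a gene outside the pathway set and at no start of the 10.

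Signal values at the 10 genes were spread as in the IDR list as a whole. Their median was 382, against 373 for all IDR peaks, and 36 of the 69 were among the 3815 strongest. A signal value of 1000 or more was reached by 12 of the 69 (17.4%), against 14.9% of all IDR peaks. These 12 belonged to sty, aos, spi, aop and pnt, and none was at vn, rho, Egfr, Ras85D or Sos.

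**Figure D2:**
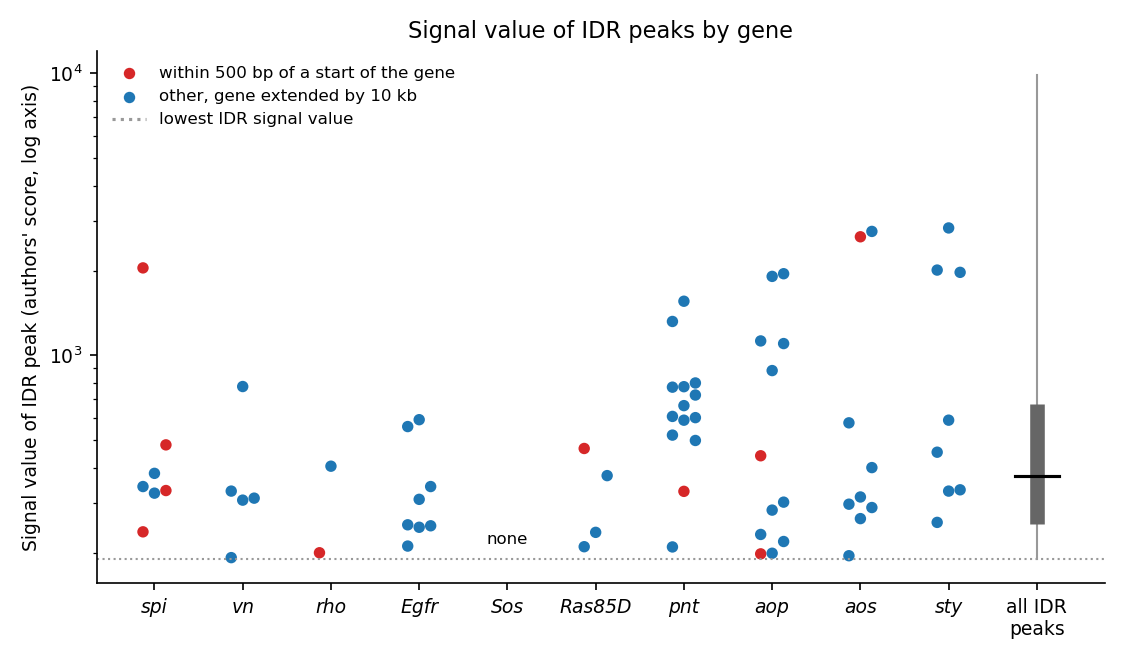
The signal value of each IDR peak on a log axis is plotted for each gene extended by 10 kb, in red for peaks at the gene's own starts, and beside them the range (thin line), the middle 50% (bar) and the median of all 7630 IDR peaks. The highest values are those of sty (2832) and aos (2753 and 2635), and Egfr stays at or below 592.

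The ligand gene spi, which encodes a precursor related to transforming growth factor alpha, had an IDR summit at each of its 3 starts. Only pnt also has 3 starts, and rho, aos, Ras85D and aop, with fewer, had an IDR summit at every start as well. It spans 19567900 to 19577315 of chromosome 2L (minus strand). The strongest peak, with its summit in an intron at 19575785 and at −198 bp from the middle start, had a signal value of 1171 in replicate 2 (rank 282) and 881 in replicate 3 (rank 341), and 2044 in the IDR list (rank 308). At the start farthest downstream the values were 290.3 in replicate 2 and 196 in replicate 3, and at the start farthest upstream 139 and 91.9 in the same order. Both replicates thus place the middle start highest. The summit at −205 bp from the outermost start also lies within 500 bp of a start of msb1l, 181 bp away, and its signal in the lists cannot be assigned to 1 of the 2 genes. A further summit at 19575984, 199 bp from the strongest one, was an IDR peak with 193 in replicate 2 (rank 4065) but 33.4 in replicate 3 (rank 22825). The other 3 summits upstream of spi lay at the starts of neighbours, 98 bp from Hakai, 106 bp from CG10366 and 97 bp from Lar.

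The second ligand gene, vn, encodes a neuregulin-like protein and spans 5813338 to 5845664 of chromosome 3L (minus strand). It had no IDR summit at its start, where the relaxed lists gave a summit 1 bp downstream of the start in replicate 2 (signal value 63.3, rank 11664) and 66 bp downstream in replicate 3 (114, rank 6333). Its 5 IDR summits lay in introns (3) and downstream of the gene (2). Both of those downstream lay in introns of another gene or genes. The strongest, at 5824228 in an intron 21436 bp from the start, had 382 in replicate 2 and 389 in replicate 3, close to each other. The remaining 4 ranged from 192 to 330.5 in the IDR list, the lowest of them near the list's own minimum of 189.9.

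The gene rho encodes the membrane protease that releases the active form of the spi product, and its transcription is restricted in the embryo. It spans 1463811 to 1468944 of chromosome 3L (plus strand) and had 2 IDR summits. The summit at −56 bp from its start had 102 in replicate 2 (rank 7630) and 103 in replicate 3 (rank 7093). That peak is close to the limit of the IDR list, at 199.8 and rank 7231. An intronic summit 815 bp downstream of the start was stronger in both replicates, with 200.3 in replicate 2 and 206 in replicate 3. The relaxed list of replicate 3 had 8 summits in the extended span, while those of replicate 2 and of the pool had 2 each.

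The receptor gene Egfr spans 21522420 to 21559977 of chromosome 2R (plus strand). None of its 2 starts had an IDR summit, while 7 IDR summits lay in its introns and 1 upstream. The upstream one, at 21514523, lay in an exon of another gene. At the outer start the strongest relaxed summit had 49.0 in replicate 2 and 81.1 in replicate 3, and at the inner start 36.9 in replicate 2 and 77.5 in replicate 3. Replicate 3 was higher at both. The summits at the outer start, at −96 bp in replicate 2 and 50 bp in replicate 3, can be different sites. The strongest intronic peaks had summits at 21527495, with 330.2 in replicate 2 and 261 in replicate 3, and at 21542670, with 289.5 in replicate 2 and 269 in replicate 3. Their order turns between the replicates, so that neither can be called the stronger. The other 6 summits had IDR signal values from 211 to 343. The starts nearest to several of these intronic summits are those of genes nested in or near Egfr, such as lncRNA:CR44725, CG30286 and CG30283, all over 1000 bp away.

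At the Ras activation step the 2 genes differed in their peak counts, with 4 IDR summits in the extended span of Ras85D and none in that of Sos. Sos, which encodes the guanine nucleotide exchange factor for Ras, spans 13813816 to 13819824 of chromosome 2L (plus strand). No IDR summit lay in it or within 10 kb. At its start the relaxed lists had 42.1 in replicate 2 (rank 16174), at −166 bp from the start, and 93.7 in replicate 3 (rank 7908), at 43 bp. Ras85D, the gene of the GTPase itself, spans 9510561 to 9513067 of chromosome 3R (minus strand). Its start peak, with the summit at −63 bp, had 259.8 in replicate 2 (rank 2969) and 207 in replicate 3 (rank 3129). The same summit is within 500 bp of a start of Rlb1. The other 3 IDR summits near Ras85D lay at starts of neighbours, 1 at CG8149 and 2 at Kdm3, CG8176 and mRpL47. Of these last 2, the summit at 9516248 had 34.2 in replicate 2 (rank 19054) and 127 in replicate 3 (rank 5557), so the replicates disagree on it.

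The gene pnt, which encodes the ETS activator at the end of the cascade, had 14 IDR summits in its extended span, the most of the 10 genes. Only 33 of the 13945 protein-coding genes, pnt included, had 14 or more. It is also the longest of the 10, at 55.9 kb, on chromosome 3R from 23290231 to 23346167 on the minus strand. Of the 14, 12 lay in its introns, and 12 were among the 3815 strongest IDR peaks. The strongest, with its summit at 23326492 and −12177 bp from the nearest start of pnt, had 887 in replicate 2 (rank 536) and 674 in replicate 3 (rank 592). The next in signal value lies beyond the 3′ end, 117 bp from a start of Cdc16, with 773 in replicate 2 and 553 in replicate 3. Between 10397 and 14691 bp from the 5′ end, 4 intronic summits had IDR signal values from 499.6 to 799, the highest of them 103 bp from the start of the noncoding gene lncRNA:CR46090. Of the 3 starts of pnt, only the one nearest its 3′ end had an IDR summit, with 154 in replicate 2 and 175 in replicate 3. The other 2 starts had relaxed summits, with 75.9 in replicate 2 and 84.5 in replicate 3 at the outermost start and 58.6 in replicate 2 and 89.8 in replicate 3 at the middle one. Its outermost start is instead flanked by IDR summits at −847 bp (522) and 840 bp (724).

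The gene aop encodes the ETS repressor that competes with the pnt product, and it had 12 IDR summits, and 53 of the 13945 genes, aop included, had 12 or more. It spans 2156484 to 2178754 of chromosome 2L (minus strand). Both of its starts had an IDR summit. At the inner start it lay at −421 bp, with 259 in replicate 2 and 187 in replicate 3, and at the outer start at 70 bp, with 98.5 in replicate 2 and 127 in replicate 3. The strongest peaks lay away from the starts. One is upstream of the gene at 2180246 (−1492 bp), with 1141 in replicate 2 and 820.3 in replicate 3, and one in an intron at 2163652, with 1102 in replicate 2 and 803 in replicate 3. These 2 are close to each other within each replicate, with the upstream one slightly higher in both, and their order was not tested. They were followed by an upstream peak at 2182944 (686 in replicate 2 and 451 in replicate 3) and an intronic one at 2164955 (653 in replicate 2 and 444 in replicate 3). The summit at 2182944 lies in an exon of another gene. A summit downstream of aop, at 2147441 (884 in the IDR list), lies 77 bp from a start of Tbcd and within 500 bp of one of CG11723.

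The gene aos encodes a secreted protein that sequesters the spi ligand, and it held 2 of the strongest peaks in the set. It spans 16470386 to 16483650 of chromosome 3L (minus strand) and had 9 IDR summits. The intronic peak at 16480565, 3085 bp downstream of the start, had 1609.5 in replicate 2 (rank 144) and 1154 in replicate 3 (rank 192). The peak at −299 bp from the start had 1449 in replicate 2 (rank 182) and 1195 in replicate 3 (rank 181). The order of the 2 turns between the replicates, so that they cannot be ranked against each other. The other 7 summits, 3 of them in introns of aos, ranged from 195 to 577 in the IDR list. Those outside aos, at 16464060, 16486650, 16487989 and 16489011, lay in introns of other genes. All 9 were higher in replicate 2, with log2 ratios from 0.08 to 0.48.

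The gene sty encodes Sprouty, an intracellular inhibitor of receptor tyrosine kinase signalling, and its peaks lay mostly beyond its 3′ end. It spans 3401153 to 3424935 of chromosome 3L (minus strand), and 6 of its 8 IDR summits were downstream of it, between genes. The one upstream of it, at 3432823, lay in an intron of another gene. The peak at 3396270 had the highest value of the 69 in the IDR list, with 1500.3 in replicate 2 (rank 167) and 1345 in replicate 3 (rank 140). In replicate 2 it was below the intronic peak of aos, so that these 2 cannot be ranked against each other either. Summits at 3394998 and 3394737, 261 bp apart, had 1144 and 1164 in replicate 2 and 861 and 679 in replicate 3, in that order. The annotated start nearest to these 3 is that of lncRNA:CR45737, 649 to 2182 bp away, and the start of sty closest to them is at least 21691 bp away. Assignment of these peaks to sty rests on distance alone. At the starts of sty there was no IDR summit. The outer start was the only one of the 17 with no relaxed summit in any list, and the inner one had 77.1 in replicate 2 and 43.0 in replicate 3.

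**Figure D3:**
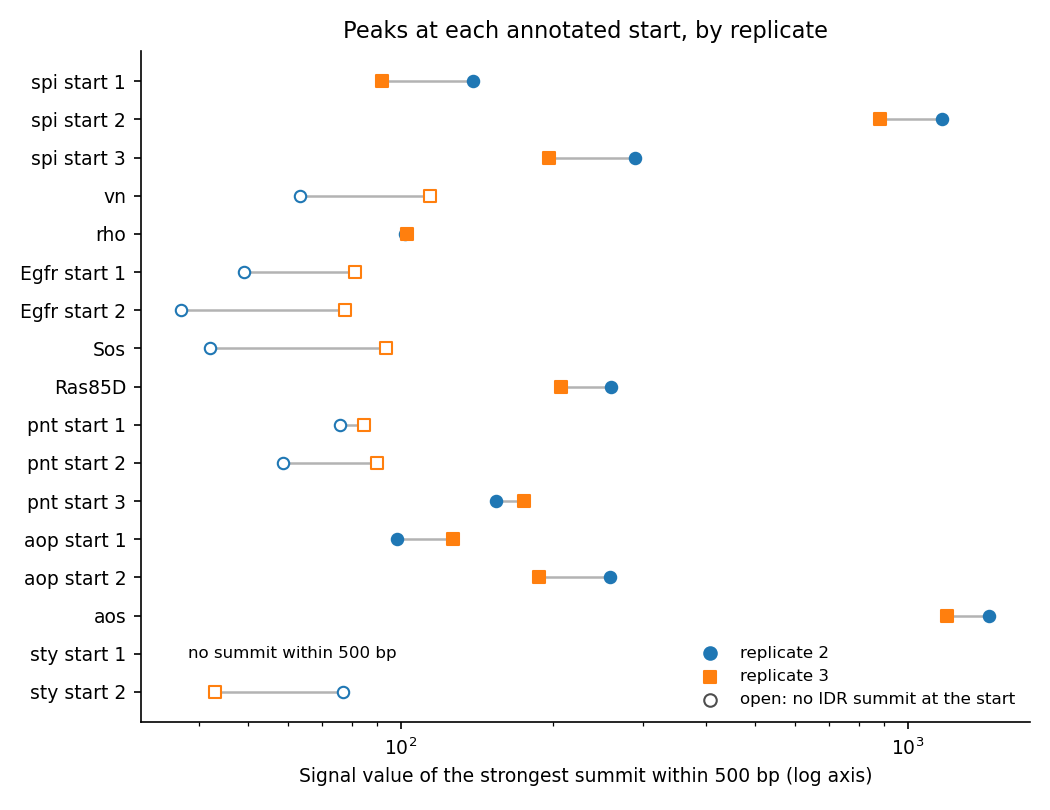
The strongest summit within 500 bp of each of the 17 annotated starts is plotted by its signal value (log axis) in replicate 2 (circles) and replicate 3 (squares), with starts numbered from the 5′ end of the gene and open symbols where no IDR summit lies at the start. Open symbols lie at or below 114, and replicate 3 is the higher one at 6 of the 7 open starts. The 2 summits at a start are the strongest of each replicate and can be different sites, as at Sos.

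In the relaxed pooled list all 10 genes had a summit within 500 bp of a start, against 54.1% of protein-coding genes, and 16 of the 17 starts had one, against 53.8% of protein-coding starts. The highest pooled signal values among starts without an IDR summit were those of vn (158) and the outermost start of pnt (155), below the IDR minimum of 189.9. At the 7 starts with a relaxed pooled summit and no IDR summit, the log2 ratio of replicate 2 to replicate 3 ran from −1.15 at Sos to 0.84 at the inner start of sty, with a median of −0.73. At the 9 starts with an IDR summit the median was 0.32. The same medians over all protein-coding starts, with summits paired in the same way, were −0.19 (4965 starts) and 0.23 (4432 starts). Their signs are those found at the 10 genes.

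The 2 replicates ranked the peaks at these genes alike. All 69 IDR summits had a counterpart within 100 bp in both relaxed replicate lists, against 96.3% of all IDR peaks, and the IDR list was itself derived from these lists. Over the 69 peaks, Spearman's rho between the replicates' signal values was 0.88 and Pearson's r of their log2 values was 0.89, which describes peaks that share the same 2 libraries. The IDR threshold scores how well ranks repeat between these same replicates, so the selection of peaks itself favours high values. The log2 ratio of replicate 2 to replicate 3 had a median of 0.33 and an SD of 0.53, against 0.28 and 0.44 over all IDR peaks with both counterparts. A ratio more than 2 SD from the median of all IDR peaks was found at 6 of the 69 (8.70%), against 6.33% of the 7351 peaks. The 3 high ones were at spi (19575984, 2.53), aop (2162865, 1.26) and pnt (23315869, 1.25). The 3 low ones were at Egfr (21529442, −0.70) and at the neighbours of Ras85D (9504540, −0.78, and 9516248, −1.90). None of these 6 is the strongest peak of its gene.

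**Figure D4:**
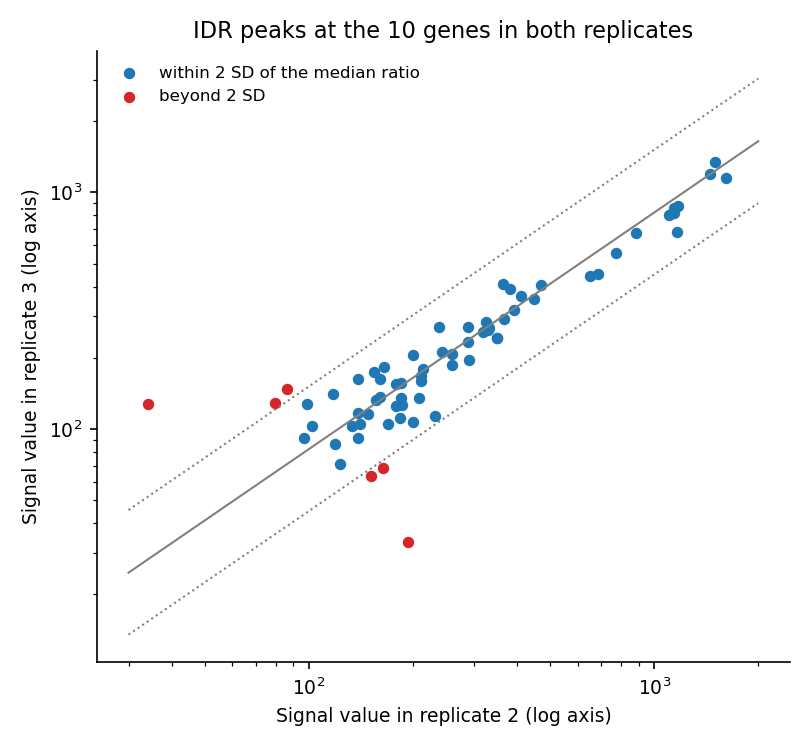
The signal value of each of the 69 IDR peaks in replicate 2 is plotted against that in replicate 3 on log axes, with the median ratio of all IDR peaks as a solid line and 2 SD to either side as dotted lines. The 6 peaks in red lie outside the dotted lines, and each is among the weaker ones, with at most 193 in replicate 2.

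Summits at the 10 genes were poor in G and C, to the same degree as the whole list. In the windows of 50 bp to either side of the 69 summits the mean GC content was 32.6%, and it was 46.0% in equal windows 300 bp away on each side, a difference of −13.4 points. Over all IDR peaks the values were 31.8% and 44.7%, a difference of −12.9 points. The SD over peaks was 9.51 in both sets. The GC content was below that of the flanks at 57 of the 69 summits, against 82.8% of all IDR peaks. The 9 summits of aos were the poorest on average (24.5% against 46.8% in their flanks), and the 2 of rho the least so (43.1% against 43.6%). The 10 summits at the genes' own starts had a mean of 41.3%, and the other 59 had 31.1%, while all IDR peaks at starts had 33.5% and those elsewhere 30.7%. The highest of the 10 were at pnt (58.4%), spi (57.4%) and rho (51.5%).

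**Figure D5:**
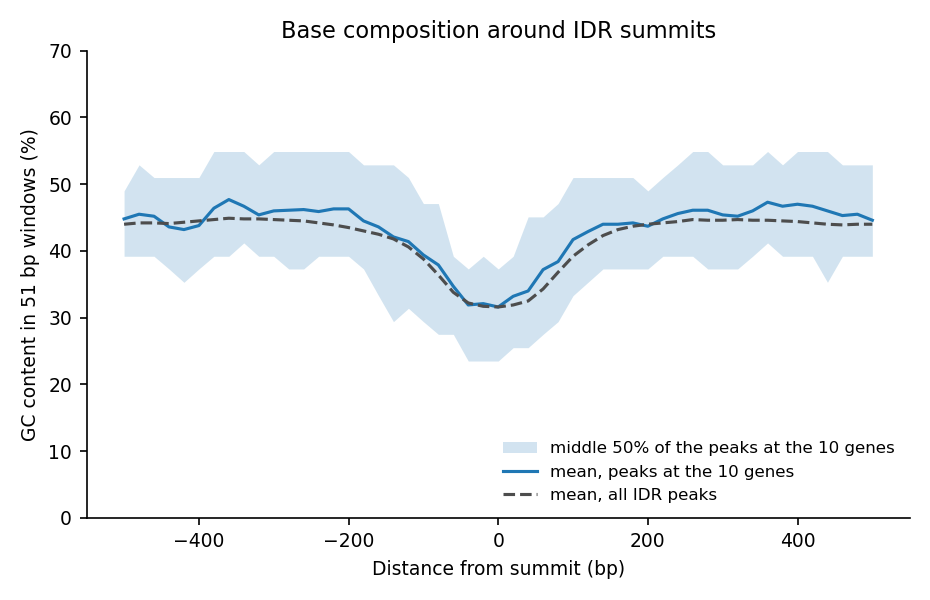
The mean GC content in 51 bp windows is plotted against the distance in bp from the summit for the 69 peaks at the 10 genes (blue, with the middle 50% of peaks shaded) and for all IDR peaks (dashed). Both lines reach 31.6% at the summit and are near 44 to 45% at 500 bp.

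Among the 16 words, those made of A and T, and both GATA words, had higher shares at the 69 summits than in the flanks. AAATAT was found at 25 of the 69 summits (36.2%) and in 7.97% of their flanks, against 36.9% and 13.9% for all IDR peaks. TATAAA was found at 16 summits (23.2%, flanks 10.1%), against 26.1% of all IDR summits (flanks 9.48%), and ATATTA at 13 (18.8%, flanks 2.90%), against 24.0% (flanks 6.32%). The GATA word AGATAA was at 9 summits (13.0%, flanks 4.35%), against 9.12% of all IDR summits (flanks 5.02%), and TGATAA was at 10 (14.5%, flanks 8.70%), against 10.4% (flanks 5.98%). The ETS core GGAAG, the letters that pnt and aop products recognise, was at 8 summits (11.6%) and in 16.7% of flanks, against 8.05% and 13.9% for all IDR peaks. It was therefore less frequent at summits than in flanks in both sets. The longer ETS word, both Capicua octamers, the M1BP word and the CTCF variant were at none of the 69, and over all IDR summits they were rare too, at 0.537% to 2.06%. With 69 summits a few matches move a share by several points, and these shares were not tested. They were also not adjusted for base composition, with a mean GC content of 32.6% at the 69 summits and 46.0% in their flanks.

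Other genes of the pathway were taken from a list of 23 symbols, of which 22 were found (Gap1 was not found under that name). Of these 22, 8 had an IDR summit at a start, against 25.2% of protein-coding genes. The count was 8 in replicate 2's own 7630 strongest peaks, against 24.4% of protein-coding genes. It was 5 of the 22 in those of replicate 3, which is below the 26.3% of protein-coding genes in that list. The 2 highest signal values were at edl, which encodes a regulator of the ETS factors, with 1194 in replicate 2 and 1087 in replicate 3, and at the adaptor gene Shc, with 1367 in replicate 2 and 841 in replicate 3. Their order turns between the replicates. Mkp3, a phosphatase gene acting on the last kinase of the cascade, had 590.2 in replicate 2, at −447 bp from one of its 2 starts. The highest value near a start in replicate 3 was 80.1, but it belongs to a different site, 76 bp downstream of the other start, so that the 2 values are no comparison of replicates. Krn, which encodes a ligand related to spi, had 556 in replicate 2 and 395 in replicate 3, and cic, which encodes the repressor Capicua, 492 and 313 in the same order. The weaker ones were dos, a scaffold gene (137 in replicate 2 and 162 in replicate 3), ksr, a kinase scaffold gene (182 and 87.9), and S, which encodes a protein that helps traffic the spi precursor (125 and 85.9). Cbl, cnk, csw and drk were among the 14 without an IDR summit at a start. The core kinase genes Raf, Dsor1 and rl were among the 14 as well. With 10 kb added on both sides, Raf (48.4 kb long) held 12 IDR summits, Dsor1 (2.70 kb) 3 and rl (54.5 kb) 0. The median over protein-coding genes was 2.00. No list, relaxed ones included, had a summit at a start of rl, and whether reads can be mapped there was not examined.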

How the data were processed

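Peaks of 2 ChIP-seq replicates of 1 group were analysed. Per the labels and the deposited text, the authors called peaks on build dm6 from the alignment of each replicate, and from both alignments for the pooled list, with 1 control alignment, and derived the IDR list from these 3 lists. Which peak caller and aligner they used is not given in the sources used here. A peak's deposited signal value is a score with no fixed range. The −log10 q value deposited by the authors is capped and was not used, and summits came from the deposited offset.

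Gene positions came from Ensembl release 115 (BDGP6) and sequence from RefSeq Release 6, both of which share dm6 coordinates. All peaks fell within the lengths of the 6 arms. Transposable element entries were left out, and coordinates count from 1. A peak belonged to a start when its summit lay within 500 bp of it, and to a gene when it lay in the gene record or 10 kb to either side. Replicate counterparts were the nearest summits within 100 bp. For values per replicate, the 7630 strongest peaks of each were taken.

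The members and lists were chosen with earlier results of these data known. Named were the 10 members, pathway genes with an IDR summit at a start and 4 without one in alphabetical order, the core kinase genes (chosen after their values were seen), and genes whose start is nearest to a member's summit or within 500 bp of it. Alternatives were each replicate alone, the 3815 strongest IDR peaks, the whole relaxed pooled list, start windows of 200 and 1000 bp, extensions of 5 kb and none, counterpart limits of 50 and 250 bp, and other sequence windows. The assignment of peaks to starts and replicates was tested on simulated data, with 200 of 200 planted genes recovered. Python 3.11.15, numpy 2.4.6, pandas 2.3.3 and matplotlib 3.10.9 were used.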

Additional observations from a re-analysis of the deposited data

How the results depend on the processing

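Counts of genes depended on the peak list and the window. Members with a summit at a start numbered 10 in the whole relaxed pooled list in place of 6, and 4 to 7 under the other alternatives, with 6 and 7 when a replicate was left out. The share of all protein-coding genes moved too, from 25.2% to 54.1% in the relaxed pooled list. It was 18.3% with a window of 200 bp, 29.4% with one of 1000 bp and 13.1% among the 3815 strongest. With the 5′ end of the gene only it was 22.7%, without replicate 3 24.4%, and without replicate 2 26.3%. Members with a summit in the extended span numbered 8 to 10 under all alternatives, with 9 when either replicate was left out. For these the share of protein-coding genes is given for the main setting only (71.4%), so the counts under the alternatives cannot be set against all genes. The 69 summits became 36 among the 3815 strongest IDR peaks, 237 in the relaxed pooled list and 39 within the genes themselves, and 64 to 65 when a replicate was left out. Pathway genes with a summit at a start numbered 5 with a window of 200 bp, 12 with one of 1000 bp, 5 among the 3815 strongest, 17 in the relaxed list, and 5 to 8 when a replicate was left out, the lower without replicate 2. These counts are out of 22 genes, and the shares of protein-coding genes given above for each setting apply to them too. The replicate ratio (0.32 to 0.37) and the GC difference (−14.4 to −11.0 points) kept their direction under every alternative run; the GC difference in each replicate alone was added after seeing the data. No paired analysis was possible because there is 1 group. Depth is unknown, so that a missing peak cannot be told from a weak one.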

Other observations

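Closely spaced summits were about as common at the 10 genes as elsewhere. Of the 69 IDR summits, 8 (11.6%) had another IDR summit within 300 bp, against 8.60% of all 7630 IDR peaks. The pairs lay at spi, aop, sty and the shared start of Kdm3 and CG8176, and in each list such pairs count as separate peaks.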
